A study of Mus musculus with 12 samples.

Results

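The angiogenic growth factors described here are 10 secreted proteins that act on vessel cells, chosen by gene symbol: the VEGF ligands Vegfa, Vegfb, Vegfc and Pgf, the angiopoietins Angpt1 and Angpt2, the fibroblast growth factors Fgf1 and Fgf2, and the platelet-derived growth factors Pdgfa and Pdgfb. All 10 were found among the 20295 genes of the count table, and all 10 passed the filter on low counts that left 13543 genes to be tested. Their counts ran from 15 reads, for Pgf in a single library, to 14508 reads, for Vegfa in another, so no member was at 0 anywhere. Vegfa, Fgf1 and Fgf2 rose upon stimulation with isoproterenol, though Fgf1 and Fgf2 each missed the threshold in 5 of 15 fits that left libraries out. Inhibition of the lipases was followed by opposite shifts of Vegfa and Fgf2 under the agonist. Vegfa was then lower, a difference that missed the threshold in 6 of 15 fits that left libraries out. Fgf2 was several-fold higher and passed in all 15.

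The libraries are RNA sequencing of epididymal white adipocytes (eWAs), which were floated from collagenase-digested epididymal fat of lean male C57/BL6J mice and embedded in a hydrogel at 50000 cells per well. After 2 days of culture the cells received vehicle (DMSO), isoproterenol for 3 h (ISO), lipase inhibitors (Lip), or lipase inhibitors followed by isoproterenol for 3 h (Lip+ISO), with 3 libraries in each of the 4 groups. The groups and the stimulus are those of the sample titles and the treatment label. The study's results text also gives ISO for 3 h, and its legend for this experiment speaks of induction by ISO. A later clause of that legend names another lipolytic stimulus, a ligand of ABHD5, and ISO was taken here. Isoproterenol is a β-adrenergic agonist that raises cAMP and starts lipolysis, and the inhibitors act on ATGL and HSL, the enzymes that release fatty acids from stored triglyceride. The study's methods describe its RNA sequencing as coming from independent experiments, while the ages of the mice and how many were pooled are not given in the sources used here.

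The 12 libraries held 22632220 to 43707557 counts. The adipocyte label was checked against 11 adipocyte markers, among them Adipoq, Plin1 and Fabp4, which summed to 26854 to 41804 CPM (counts scaled to library size with TMM factors) and were above 0 in every library. Summed markers of other cells the floated fraction could hold were lower, at 391 to 1027 CPM for fibroblasts, 280 to 524 CPM for pericytes, 74.9 to 578 CPM for endothelial cells, 55.3 to 157 CPM for macrophages and 14.4 to 75.6 CPM for mesothelial cells. Cd163, a macrophage marker, was at 0 in one vehicle library, and the mesothelial marker Msln was at 0 in one Lip library. These marker sums hold different genes and are not scaled to length, so they do not give shares of cells. Fabp4 alone averaged 14216 to 16183 CPM in the groups. In such bulk libraries fewer cells of a type and less RNA per cell cannot be told apart.

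White fat expands and shrinks through adult life, and its capillary bed is remodelled with it. VEGF ligands act on the receptor tyrosine kinases FLT1, KDR and FLT4 of endothelial cells, with VEGF-A as the main signal for sprouting through KDR, whereas VEGF-B and PlGF bind FLT1. Angiopoietins signal through TEK (TIE2) on endothelium, where ANGPT1 stabilises vessels and ANGPT2 opposes it in many settings, FGF ligands act on FGF receptors of many cell types, and PDGF ligands recruit mesenchymal cells, including pericytes. Transcription of Vegfa is raised in low oxygen by hypoxia-inducible factors (HIFs), and in other tissues the coactivator PGC-1α (Ppargc1a) can raise it independently of them.

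To place the members beside each other, CPM were divided by the counted length that the table gives for each gene, in kilobases. In vehicle the highest level was that of Vegfa, at 49.5 ± 1.41 CPM per kb (SD, n = 3), followed by Vegfb at 43.9 ± 3.88 and Fgf2 at 33.9 ± 4.38. The ranges of these 3 genes over their libraries did not overlap with one another. Pdgfa (13.3 ± 2.28 CPM per kb), Pdgfb (8.61 ± 3.23) and Fgf1 (4.43 ± 1.81) formed a middle tier, in which Pdgfa and Pdgfb overlapped. Angpt2 (1.82 ± 0.62), Pgf (1.69 ± 0.80), Vegfc (0.83 ± 0.40) and Angpt1 (0.70 ± 0.04) lay lowest, and each of them overlapped with its neighbour in the order.

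The top of that order differed between the groups, while the same 4 genes made up the lowest tier in each. With ISO, Vegfa led at 110 ± 16.1 CPM per kb, ahead of Fgf2 at 53.3 ± 10.6 and Vegfb at 38.2 ± 2.89, again without overlap. With Lip alone, Fgf2 (45.6 ± 10.4), Vegfb (43.0 ± 0.57) and Vegfa (41.7 ± 1.28) overlapped. In Lip+ISO, Fgf2 led at 185 ± 38.6 CPM per kb, above Vegfa at 69.6 ± 21.8 and Vegfb at 40.2 ± 8.08. The level of Fgf2 rests on a counted length of only 695 bp, and when levels were set per length of the transcript span, Fgf2 had rank 4 over all 12 libraries and Vegfa rank 1.

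**Figure D1:**
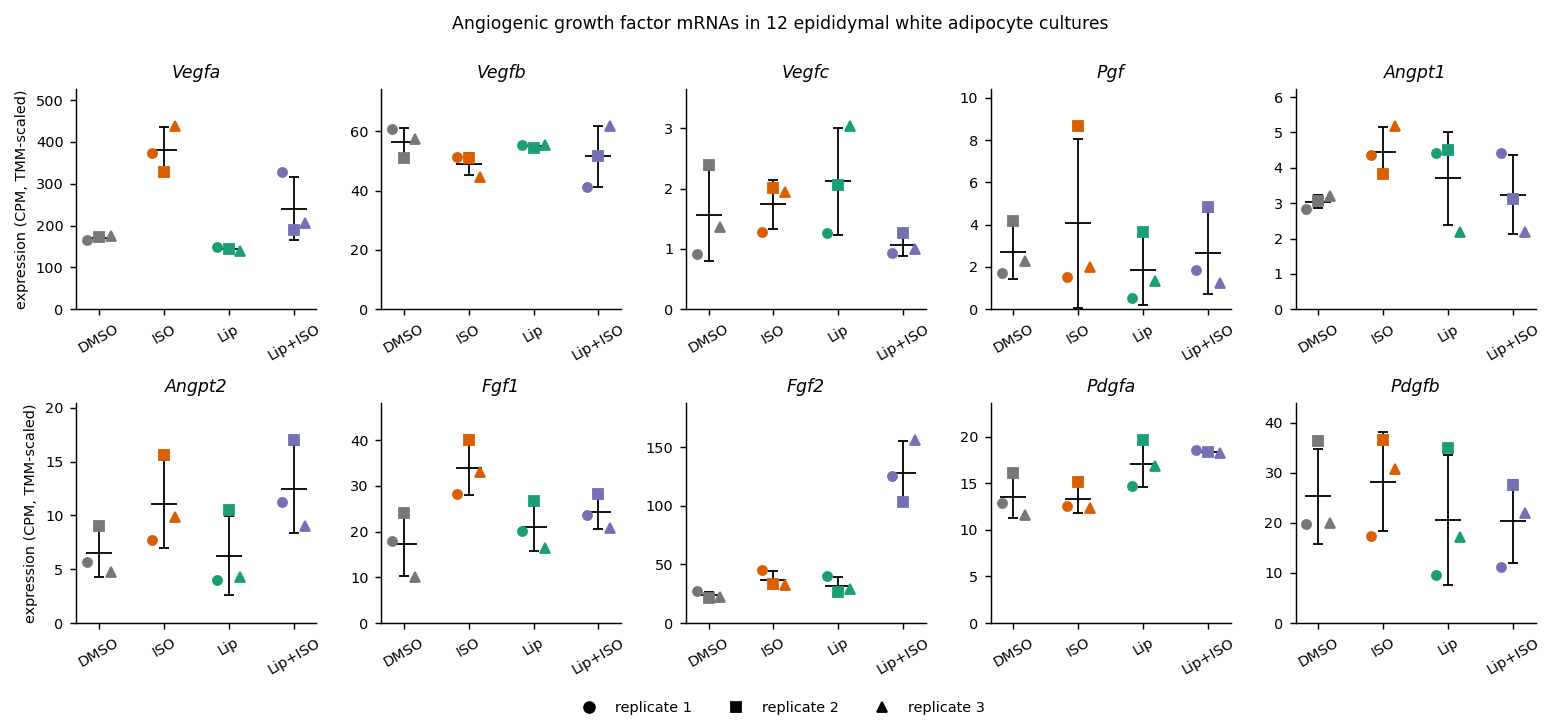
TMM-scaled CPM (linear axes starting at 0) of the 10 growth factor genes in the vehicle (DMSO), ISO, Lip and Lip+ISO groups. Each point is a library, its shape gives the replicate number, and the bars give mean and SD of 3 libraries. Vegfa is highest in the 3 ISO libraries (328 to 439 CPM), the lowest of which barely exceeds Lip+ISO replicate 1 (327 CPM). Fgf2 stands out in the 3 Lip+ISO libraries (103 to 157 CPM), and Pgf, Pdgfb, Angpt2 and Fgf1 are highest in replicate 2 of every group.

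The promoters of the members that moved are shown because Vegfa and Fgf2 responded to the same agonist but differed in their response under inhibition, and that of Vegfb is shown as a family member that passed no test. The sequences are RefSeq windows on GRCm38.p6, from 250 bases before to 50 bases after an annotated start, and 6 of the 10 members matched, with 9 windows (no entry was found for Angpt1, Angpt2, Fgf1 and Pdgfb). Capitals mark matches on either strand to the cAMP response core TGACG, which reads CGTCA on the other strand, or to the hypoxia response core ACGTG, which reads CACGT. The full cAMP response element TGACGTCA, which contains that core on both strands, was searched too and occurred in no member window. For the hypoxia core only the letters ACGTG were searched, and forms with another first base were not. These motifs were picked with the expression results known.
Fgf2, chr3:37348403-37348702, plus strand: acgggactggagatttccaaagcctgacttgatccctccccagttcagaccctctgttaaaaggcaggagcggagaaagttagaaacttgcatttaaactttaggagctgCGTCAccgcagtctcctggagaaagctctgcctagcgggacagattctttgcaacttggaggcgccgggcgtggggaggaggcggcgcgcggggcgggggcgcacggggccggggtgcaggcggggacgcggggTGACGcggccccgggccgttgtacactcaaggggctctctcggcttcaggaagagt
Vegfa, upstream start, chr17:46032328-46032627, minus strand: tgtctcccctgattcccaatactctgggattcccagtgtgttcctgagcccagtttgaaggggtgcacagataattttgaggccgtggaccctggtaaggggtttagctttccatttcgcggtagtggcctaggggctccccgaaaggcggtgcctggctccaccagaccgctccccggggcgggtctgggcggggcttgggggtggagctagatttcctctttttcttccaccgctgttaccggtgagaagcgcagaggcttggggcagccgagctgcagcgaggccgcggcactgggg
Vegfa, internal start, chr17:46025114-46025413, minus strand: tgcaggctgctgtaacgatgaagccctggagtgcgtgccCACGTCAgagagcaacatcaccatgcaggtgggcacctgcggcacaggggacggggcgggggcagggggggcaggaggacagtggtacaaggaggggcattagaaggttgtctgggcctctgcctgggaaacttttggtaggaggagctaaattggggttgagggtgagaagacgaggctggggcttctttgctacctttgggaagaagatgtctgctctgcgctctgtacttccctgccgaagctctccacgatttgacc
Vegfb, chr19:6987602-6987901, minus strand: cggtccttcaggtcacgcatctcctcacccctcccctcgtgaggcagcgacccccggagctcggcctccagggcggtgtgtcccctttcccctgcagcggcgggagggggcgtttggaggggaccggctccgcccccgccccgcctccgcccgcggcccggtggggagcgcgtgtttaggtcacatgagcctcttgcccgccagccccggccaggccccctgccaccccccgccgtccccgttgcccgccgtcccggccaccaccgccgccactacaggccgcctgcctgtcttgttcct

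The Fgf2 window held 2 cAMP cores, which began at positions -140 on the minus strand and -6 on the plus strand, counted from the start site. The upstream Vegfa window and the Vegfb window held none of the 3 motifs. The internal Vegfa window held 1 cAMP core and 1 hypoxia core that overlap, at -209 and -211 from its own start. That window lies inside the gene, downstream of the upstream start, so these letters are part of the sequence transcribed from the upstream start. Of the Pdgfa windows one held a cAMP core at -205, and no match lay in the windows of Vegfc and Pgf. Over all 32851 promoter windows of the table, 20.8% held at least 1 cAMP core, 5.01% held 2 or more, 19.6% held the hypoxia core and 1.79% the full element. A match describes letters only, and its absence says only that these letters are not in the window.

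Differences were tested across all genes with edgeR, and a gene was taken to pass when its adjusted p was 0.05 or less. For ISO against vehicle, 3 of the 10 members passed as higher (Vegfa, Fgf1 and Fgf2) and 0 as lower, where 12.3% of all tested genes passed as higher and 13.9% as lower. No member was lower at an unadjusted edgeR p under 0.05 either, and DESeq2 gave the same counts of 3 and 0. At a log2 change of at least 1 in size, 1 member (Vegfa) was left, beside 5.68% of genes. The median log2 fold change of the members was 0.59, beside 0.0018 for all tested genes. All 3 ISO libraries lay above all 3 vehicle libraries for 4 members (Vegfa, Fgf1, Fgf2 and Angpt1), an ordering that 20.7% of all genes shared.

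With lipases inhibited, the response to ISO (Lip+ISO against Lip) passed for 2 members, Vegfa and Fgf2, both higher, where 11.5% of genes passed as higher and 15.8% as lower. Vegfc alone was lower at an unadjusted edgeR p under 0.05, and DESeq2 called 3 members higher, with Angpt2 added, and 0 lower. Fgf2 alone rose by at least 1 on the log2 scale, as 4.19% of genes did, and the ordering without overlap held for 2 members upward, beside 17.2% of genes. The members' median was 0.16 on the log2 scale, beside -0.0041 for all genes. For Lip against vehicle, 0 of 10 passed in either direction in edgeR and in DESeq2, with 2 members (Fgf2 and Pdgfa) at an unadjusted edgeR p under 0.05. Across all genes 0.00738% were called higher and 0.0443% lower in that comparison.

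For Lip+ISO against ISO, Fgf2 passed as higher and Vegfa as lower, where 4.36% of genes passed as higher and 4.59% as lower, and the members' median was -0.47, beside -0.0090 for all genes. Fgf2 also exceeded a log2 change of 1, which 0.79% of genes did upward. The interaction subtracts the ISO response without inhibitors from the one with them. It passed for Fgf2 alone, which was positive, beside 0.901% of genes with a positive and 0.724% with a negative value, and 0.406% at 1 or more on the log2 scale. These comparisons share libraries with one another: the ISO group enters 2 of the comparisons between groups, and so does each other group.

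**Figure D2:**
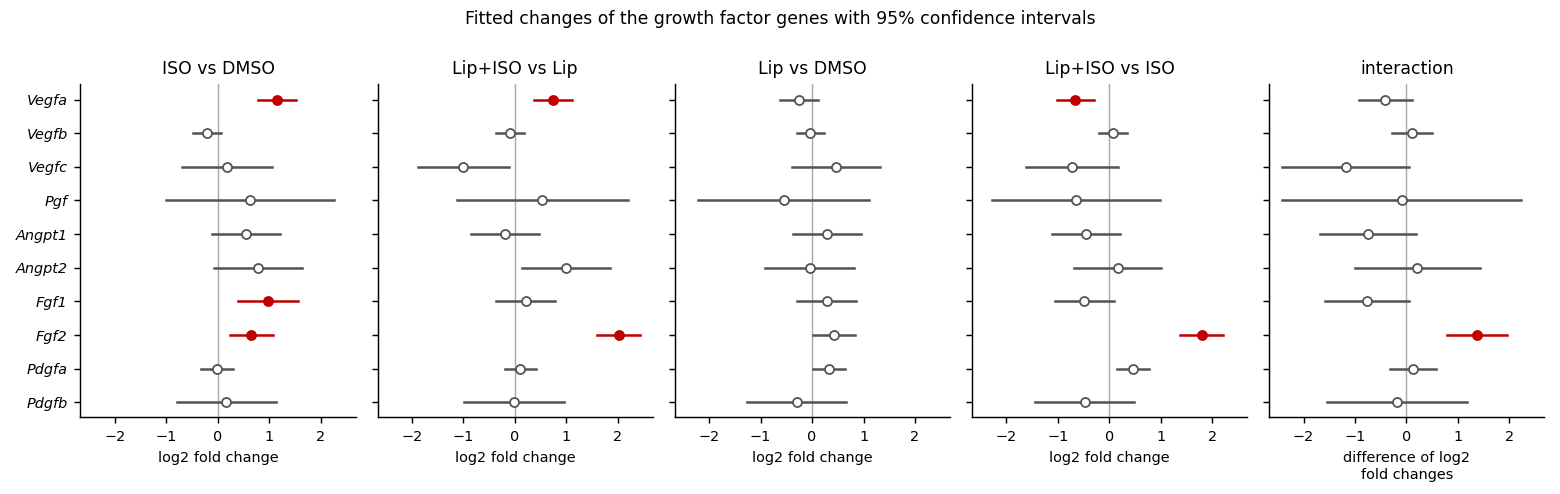
Fitted log2 fold changes of the 10 genes in 4 comparisons and, in the last panel, the interaction (difference of log2 fold changes), with 95% confidence intervals. Red filled points passed at an adjusted p of 0.05 in edgeR and open points did not. Vegfa lies at 1.15 for ISO against vehicle and -0.66 for Lip+ISO against ISO, while Fgf2 lies at 0.65 and 1.79.

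Vegfa (chr17:46153943-46169326, mm9, minus strand) encodes the main endothelial survival and sprouting factor made by adipocytes. It measured 166, 173 and 175 CPM in the vehicle libraries and 373, 328 and 439 CPM in the ISO libraries (replicates 1 to 3). Every ISO library was above every vehicle library, and the vehicle libraries lay close together. The log2 fold change was 1.15 ± 0.17 (SE, adjusted p = 3.77e-04, edgeR), or 2.22-fold, and it stayed past the threshold in all 15 fits that left out a library or a replicate number, at 1.03 to 1.25.

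When lipolysis was blocked, Vegfa still rose with ISO, but to a lower level. The Lip libraries measured 148, 145 and 139 CPM and the Lip+ISO libraries 327, 190 and 205 CPM. Lip+ISO did not overlap with Lip, and its replicate 1 lay well above the other two. The log2 fold change against Lip was 0.74 ± 0.17 (adjusted p = 0.00557, edgeR) and ranged from 0.45 to 0.89 in the leave-one-out fits, all of which passed.

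Markers of several cell types were also lower in Lip+ISO than in ISO. Of 56 markers 6 passed as lower in edgeR, the fibroblast markers Col1a1, Col3a1 and Pdgfra, the endothelial marker Cldn5, the macrophage marker Mpeg1 and the adipocyte marker Lipe, and 25 did with the replicate number as a block. Of all tested genes 4.59% passed as lower without the block, and the share with it is not given here. The median log2 difference was -0.72 over the fibroblast and -0.77 over the endothelial markers, and Pparg alone passed as higher. The part of these cells in the Vegfa and Fgf2 values of that comparison was not tested.

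All Lip+ISO libraries were below all ISO libraries for Vegfa, an ordering shown by 13.5% of all genes. It held only barely, with 327.3 CPM in Lip+ISO replicate 1 and 328.1 CPM in ISO replicate 2. The difference between the groups was -0.66 ± 0.17 on the log2 scale (adjusted p = 0.0299, edgeR). This call was lost without ISO replicate 1 (adjusted p = 0.0566), ISO replicate 3 (0.119), Lip+ISO replicate 2 (0.0948) or Lip+ISO replicate 3 (0.119), without replicate 2 (0.173) or 3 (0.364) of every group, and it was also lost when the fit held only the groups compared (0.11). The interaction of Vegfa was -0.41 ± 0.24 (adjusted p = 0.493, edgeR), with a 95% confidence interval from -0.93 to 0.11. A weaker response to ISO under inhibition was therefore not shown by its own test, except without Lip+ISO replicate 1, where the interaction was -0.70 (adjusted p = 0.0282). Lip against vehicle gave -0.25 ± 0.17 (adjusted p = 1, edgeR), although all 3 Lip libraries were the lower ones, as they were for 5.21% of all genes.

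Vegfb (chr19:7056962-7062141, mm9, minus strand), a FLT1 ligand linked to fatty acid handling in other tissues, was the steadiest of the abundant members. It ranged from 41.1 to 61.8 CPM over the 12 libraries and passed in no comparison. Its log2 fold change with ISO was -0.20 ± 0.12 (adjusted p = 0.254, edgeR; 95% confidence interval -0.47 to 0.07), an interval that does not reach the 1.15 of Vegfa.

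Vegfc (chr8:55162886-55271808, mm9, plus strand), a ligand of the lymphatic receptor FLT4, was near the lower end with 23 to 110 reads per library. It measured 1.27, 2.06 and 3.04 CPM in Lip and 0.93, 1.26 and 0.99 CPM in Lip+ISO. The Lip+ISO libraries were all lower, an ordering shown by 22% of all genes, and the log2 difference of -1.003 ± 0.41 missed the threshold (adjusted p = 0.0902, edgeR). With the replicate number as a block it was -0.96 and passed (adjusted p = 0.0349, edgeR), in a fit where 20.1% of genes passed as lower, and it also passed without Lip replicate 1 (-1.25, adjusted p = 0.0478).

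Pgf (chr12:86507589-86518263, mm9, minus strand) encodes placental growth factor, another FLT1 ligand. In vehicle it measured 1.71, 4.15 and 2.27 CPM and in ISO 1.54, 8.68 and 1.99 CPM. Replicate 2 was the highest in both groups, and the groups overlapped. The log2 fold change of 0.63 ± 0.75 (adjusted p = 0.569, edgeR) had a 95% confidence interval from -0.997 to 2.25, so neither a rise nor a fall of Pgf could be told at this spread.

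The make-up of VEGF ligand mRNA was followed by adding the CPM per kb of these 4 genes and of Figf, which encodes VEGF-D. Vegfa made up 42.5 ± 2.07% (SD, n = 3) of the sum in vehicle, 63.9 ± 4.89% in ISO, 38.2 ± 0.32% in Lip and 50.3 ± 8.75% in Lip+ISO. The share of Vegfb was 37.7 ± 2.52%, 22.4 ± 3.06%, 39.4 ± 1.65% and 30.2 ± 8.70% in the same order, and that of Figf 17.6%, 11.5%, 20.3% and 17.8%. Pgf and Vegfc held at most 3.41% and 1.54% in any library. The shares are tied to one another, and no test was run on them.

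**Figure D3:**
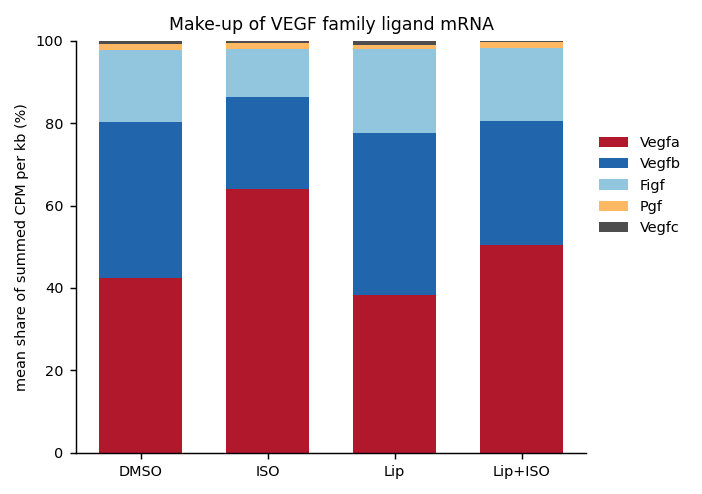
Mean share (%) of each VEGF ligand in the summed CPM per kb of Vegfa, Vegfb, Figf, Pgf and Vegfc, with 1 stacked bar per group (mean of 3 libraries). Vegfa takes 42.5% in vehicle, 63.9% in ISO, 38.2% in Lip and 50.3% in Lip+ISO.

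Of the angiopoietins, Angpt2 (chr8:18690263-18741562, mm9, minus strand), which loosens vessel walls where VEGF signals, measured 5.72, 8.98 and 4.78 CPM in vehicle and 7.75, 15.6 and 9.86 CPM in ISO. In Lip it measured 4.02, 10.5 and 4.23 CPM and in Lip+ISO 11.3, 17.0 and 9.06 CPM. Replicate 2 was the highest library in each of the 4 groups, so that the groups overlapped although Angpt2 was higher with ISO within each of the 3 replicate numbers, both with and without inhibitors. The log2 values were 0.78 ± 0.40 for ISO against vehicle (adjusted p = 0.165, edgeR) and 0.99 ± 0.40 for Lip+ISO against Lip (adjusted p = 0.0842, edgeR).

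With the replicate number as a block, both passed in edgeR, at 0.76 (adjusted p = 0.00444) and 1.07 (adjusted p = 4.13e-04). In that fit 18.8% of genes passed as higher for ISO against vehicle and 15.5% for Lip+ISO against Lip. Leaving out Lip replicate 2 also brought Angpt2 past the threshold for Lip+ISO against Lip, at 1.59 (adjusted p = 0.00767, edgeR), as did leaving out replicate 2 of every group (1.30, adjusted p = 0.00571). Angpt2 lies within the span of Mcph1 on the other strand, so reads of shared bases cannot be told apart. Mcph1 differed in the opposite direction, at -0.56 ± 0.17 for Lip+ISO against Lip (adjusted p = 0.0314, edgeR).

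Angpt1 (chr15:42256213-42508523, mm9, minus strand), the stabilising TEK ligand that is mostly made by mesenchymal cells, was scarce, with 55 to 169 reads per library. It measured 2.84, 3.06 and 3.21 CPM in vehicle and 4.36, 3.82 and 5.19 CPM in ISO. These groups did not overlap, yet the log2 fold change of 0.55 ± 0.30 missed the threshold (adjusted p = 0.203, edgeR). In Lip and Lip+ISO its libraries spanned 2.18 to 4.51 CPM, and the difference between them was -0.19 ± 0.30 (adjusted p = 0.701, edgeR).

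Fgf2 (chr3:37247575-37303752, mm9, plus strand), or basic FGF, is a mitogen of endothelial cells and of adipocyte precursors. It measured 27.1, 21.6 and 22.0 CPM in vehicle, 45.5, 33.6 and 32.1 CPM in ISO and 39.9, 26.1 and 29.1 CPM in Lip. The Lip+ISO libraries stood apart from these at 125, 103 and 157 CPM, more than the highest of the other 9 libraries by a wide margin. Lip+ISO was 4.05-fold above Lip, a log2 fold change of 2.02 ± 0.19 (adjusted p = 6.48e-06, edgeR), and 3.47-fold above ISO, at 1.79 ± 0.19 (adjusted p = 9.72e-05). Both passed in all 15 leave-one-out fits, at 1.79 to 2.25 and 1.53 to 1.99.

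Without inhibitors the rise of Fgf2 was smaller, at 0.65 ± 0.19 on the log2 scale (adjusted p = 0.0254, edgeR), with no overlap between the groups. It lost its call without vehicle replicate 2 (adjusted p = 0.0773), vehicle replicate 3 (0.0971) or ISO replicate 1 (0.0979), and without replicate 2 (0.0837) or 3 (0.089) of every group. Lip alone gave 0.43 ± 0.19 (adjusted p = 1, edgeR), with Lip and vehicle overlapping. The interaction was 1.37 ± 0.27 (adjusted p = 0.024, edgeR), so the response to ISO was 2.58-fold larger with inhibitors than without.

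The size of this interaction ranged from 1.097 to 1.65 in the leave-one-out fits, while its adjusted p for Fgf2 was above 0.05 in 9 of 15. The single libraries whose removal did this were vehicle replicate 1 (adjusted p = 0.0763) and 3 (0.0522), ISO replicate 2 (0.0773) and 3 (0.073), Lip replicate 2 (0.0707) and 3 (0.0591) and Lip+ISO replicate 3 (0.0507). Leaving out replicate 2 or 3 of every group gave 0.18 and 0.36.

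Fgf2 converges with Nudt6, a gene on the opposite strand known as an Fgf2 antisense transcript (chr3:37303904-37318518, mm9, minus strand). The counted intervals lie 151 bp apart, but in the GENCODE M1 annotation of the same assembly exons of both genes share 242 bp, at chr3:37304058-37304299, inside the Nudt6 interval of the table and beyond that of Fgf2. Whether counting used strand is not given in the sources used here, so reads from the shared bases cannot be told apart. The counted interval of Fgf2 does not hold these bases.

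Nudt6 followed the same pattern as Fgf2. It measured 40.1, 35.7 and 37.7 CPM in vehicle, 52.6, 39.8 and 42.7 CPM in ISO, 47.1, 40.1 and 44.8 CPM in Lip, and 123, 116 and 141 CPM in Lip+ISO. The 3 Lip+ISO libraries lay above the other 9. The log2 fold changes were 1.53 ± 0.11 against Lip (adjusted p = 6.84e-07, edgeR) and 1.49 ± 0.11 against ISO (9.17e-06), and the interaction was 1.28 ± 0.16 (adjusted p = 0.00172, edgeR). ISO against vehicle gave 0.25 ± 0.11 for Nudt6 and did not pass (adjusted p = 0.121, edgeR).

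**Figure D4:**
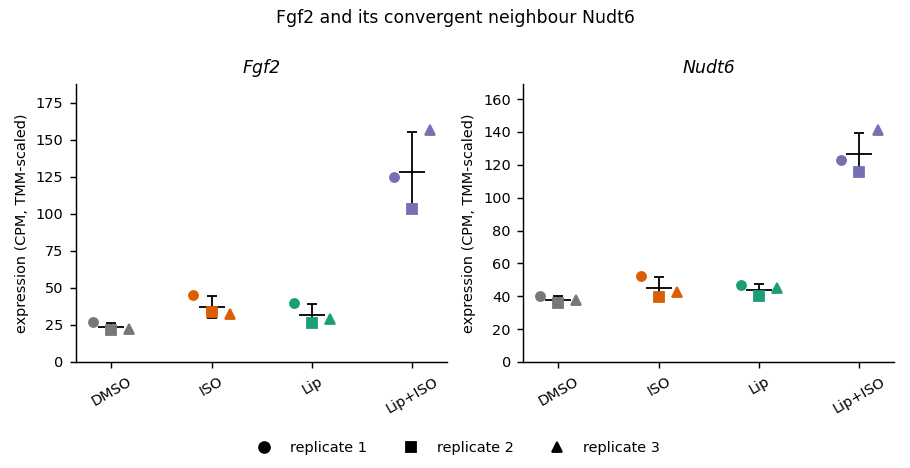
TMM-scaled CPM of Fgf2 (left) and of its convergent neighbour Nudt6 (right) in each library, on linear axes from 0, with mean and SD of 3 libraries per group. In both panels the 3 Lip+ISO libraries (103 to 157 CPM for Fgf2, 116 to 141 CPM for Nudt6) lie above the other 9.

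Fgf1 (acidic FGF, on chromosome 18 of mm9, minus strand) is a PPARγ target gene that is needed for remodelling of fat in mice. It measured 17.9, 24.1 and 9.98 CPM in vehicle and 28.3, 40.1 and 33.1 CPM in ISO. ISO lay above vehicle without overlap, and vehicle replicate 3 was the lowest of all libraries. The log2 fold change was 0.97 ± 0.27 (adjusted p = 0.0181, edgeR), or 1.96-fold, and the call of Fgf1 was lost without vehicle replicate 1 (0.0524), vehicle replicate 3 (0.0525, at 0.69) or ISO replicate 2 (0.0767), and without replicate 1 (0.0796) or 3 (0.0736) of every group.

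With inhibitors, Fgf1 did not pass: Lip measured 20.1, 26.7 and 16.3 CPM and Lip+ISO 23.7, 28.3 and 20.8 CPM, which overlap, with a log2 difference of 0.21 ± 0.27 (adjusted p = 0.637, edgeR). All Lip+ISO libraries were below all ISO libraries, if barely (28.28 CPM in the highest against 28.32 CPM in the lowest), and the difference of -0.48 ± 0.26 missed the threshold (adjusted p = 0.294, edgeR). The interaction was -0.77 ± 0.38 (adjusted p = 0.404), so a difference between both responses was not shown. The span of Fgf1 overlaps that of Gm5820 on the other strand, which held 10 to 44 reads per library.

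Among the PDGF ligands, Pdgfa (chr5:139452929-139470907, mm9, minus strand), a ligand of the receptor PDGFRA on fat progenitors, measured 12.9, 16.1 and 11.6 CPM in vehicle and 12.5, 15.1 and 12.3 CPM in ISO. The groups overlapped and the log2 fold change was -0.02 ± 0.14 (adjusted p = 0.935, edgeR), with a 95% confidence interval from -0.33 to 0.29. In the presence of inhibitors it measured 14.7, 19.7 and 16.9 CPM without and 18.6, 18.3 and 18.2 CPM with ISO. All Lip+ISO libraries were above all ISO libraries, an order shared by 11.9% of genes, and the difference of 0.46 ± 0.14 in Pdgfa missed the threshold (adjusted p = 0.0677, edgeR), which it passed without vehicle replicate 2 (0.0463).

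Pdgfb (chr15:79826306-79845238, mm9, minus strand), which endothelial cells make to recruit pericytes, spread widely within every group. It measured 19.7, 36.3 and 19.9 CPM in vehicle, 17.3, 36.6 and 30.7 CPM in ISO, 9.62, 34.9 and 17.2 CPM in Lip and 11.2, 27.6 and 22.0 CPM in Lip+ISO. Replicate 2 was highest in all 4 groups, and no comparison came near the threshold. For ISO against vehicle the log2 difference was 0.16 ± 0.44 (adjusted p = 0.81, edgeR), with a 95% confidence interval from -0.79 to 1.12.

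The same 4 members, Pgf, Angpt2, Fgf1 and Pdgfb, were highest in replicate 2 of all 4 groups, whereas Vegfa and Vegfb were highest there in 0 and Fgf2 in 0 of 4 groups. Summed endothelial markers (12 genes, among them Pecam1, Cdh5 and Kdr, none at 0 in any library) were highest in replicate 2 of every group as well. They ran from 149 to 273 CPM in vehicle, 321 to 578 CPM in ISO, 74.9 to 241 CPM in Lip and 112 to 325 CPM in Lip+ISO. Of these markers 1 passed as higher for ISO against vehicle, Cldn5 at 2.52 ± 0.48 (adjusted p = 0.00222, edgeR), and 10 of 12 with the replicate number as a block. Summed fibroblast and pericyte markers were likewise highest in replicate 2 of every group, and summed mesothelial markers in every group but Lip. The part of endothelial, fibroblast, pericyte or mesothelial RNA in the values of these members was not tested.

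**Figure D5:**
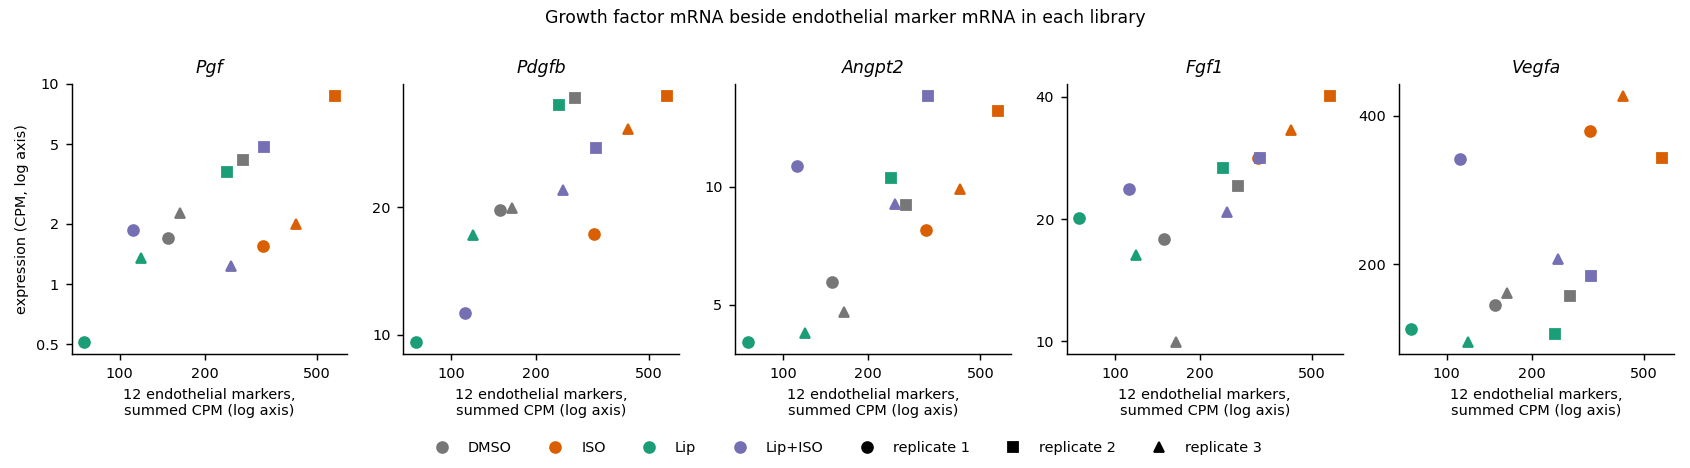
CPM of Pgf, Pdgfb, Angpt2, Fgf1 and Vegfa (vertical, log axis) against the summed CPM of 12 endothelial markers (horizontal, log axis) in each of 12 libraries. Color gives the group and shape the replicate number. Replicate 2 (squares) lies farthest right within each group and is the highest of its group for Pgf, Pdgfb, Angpt2 and Fgf1, but for no group in the Vegfa panel.

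Markers of other cells also differed between vehicle and ISO. Summed fibroblast markers were 391 to 700 CPM in vehicle and 764 to 1027 CPM in ISO, with 3 of 9 genes higher (9 of 9 with the block), and summed macrophage markers were 55.3 to 68.4 and 109 to 157 CPM, with 7 of 9 higher. Of 9 pericyte markers 3 rose (7 with the block, which also called Acta2 lower), at a summed 293 to 457 and 360 to 524 CPM, and of 6 mesothelial markers 1 rose (2 with the block), at 24.8 to 56.6 and 65.4 to 75.6 CPM. Among 11 adipocyte markers Pparg and Lep fell and none rose. With ISO in the presence of inhibitors, Lip+ISO against Lip, 1 of 12 endothelial (7 with the block), 2 of 9 macrophage, 0 of 9 fibroblast (2 with the block), 2 of 9 pericyte and 1 of 6 mesothelial markers passed as higher. The pericyte marker Acta2 (with Tagln under the block) and the adipocyte markers Lep and Lipe passed as lower there. Their part in the rises of Vegfa, Fgf1 and Fgf2 was not tested.

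Other ligands of the same families were read from a list of 14, of which 11 were tested. For ISO against vehicle 1 of 11 rose, Fgf18, a bone and lung FGF, at 1.198 ± 0.34 (adjusted p = 0.022, edgeR), and 5 of 11 did so with the replicate block. With inhibitors 3 rose in response to ISO: Fgf10, which supports preadipocytes, at 0.94 ± 0.16 (adjusted p = 7.21e-04), Fgf18 at 1.45 ± 0.34 (0.006) and Fgf9 at 1.78 ± 0.53 (0.0236). The block added Pdgfc as lower. Fgf21, a metabolic hormone, was lower in Lip+ISO than in ISO, at -1.59 ± 0.45 (adjusted p = 0.0463), and lay at 14.8 to 37.8 CPM in ISO and 7.4 to 9.1 CPM in Lip+ISO. Of these calls that of Fgf10 passed in all 15 leave-one-out fits, whereas Fgf18 lost its call in 6 with ISO alone and in 1 under inhibition, Fgf9 in 6 and Fgf21 in 9 of 15. Fgf9 held only 3, 5 and 10 reads in the Lip libraries and 21, 15 and 13 reads in the Lip+ISO libraries. Without a filter on low counts Fgf9 missed the threshold (0.0709). Figf passed in none of the 5 tests without the block.

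Of 14 receptors and coreceptors 13 were tested. For ISO against vehicle the PDGF receptors Pdgfra (0.93 ± 0.23) and Pdgfrb (0.88 ± 0.22) and the VEGF receptor Flt1 (1.09 ± 0.36) rose and Fgfrl1, an FGF receptor without a kinase domain, fell (-0.31 ± 0.10), at adjusted p values of 0.0109, 0.0103, 0.0398 and 0.0358 in edgeR. With the block 8 of 13 rose, including Kdr, Tie1 and Tek, which are also among the endothelial markers. Pdgfra and Pdgfrb likewise stand on the fibroblast and pericyte lists. Leaving out libraries ended the call of Pdgfra and Pdgfrb in 3 and of Flt1 and Fgfrl1 in 6 of 15 fits, and Flt1 missed it when library totals alone set the scale (0.0613).

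In the inhibited cultures ISO raised Fgfr1 (0.39 ± 0.12, adjusted p = 0.0309, edgeR), while the VEGF coreceptor Nrp2 (-0.61 ± 0.13, 0.00415) and Fgfrl1 (-0.36 ± 0.10, 0.0169) fell, with 4 of 13 higher under the block. Pdgfra was lower in Lip+ISO than in ISO, at -1.03 ± 0.23 (adjusted p = 0.0152). The Nrp2 call held in all 15 leave-one-out fits, while that of Fgfr1 was lost in 6, with library totals alone (0.0876) and in the fit of the compared groups (0.0898), of Fgfrl1 in 5 and of Pdgfra in 6.

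Secreted inhibitors of vessel growth moved in both directions with ISO. Of 10 such genes, Adamts1 (1.00 ± 0.21), Sema3a (1.07 ± 0.23), Sema3f (0.80 ± 0.21) and Serpinf1 (0.37 ± 0.09) rose, while Thbs1, which encodes the matrix protein thrombospondin 1, fell by 0.99 on the log2 scale. Thbs1 was by far the most abundant of these changes, at 3310, 3661 and 5108 CPM in vehicle and 2187, 1857 and 2029 CPM in ISO. Under inhibition it fell from 3300, 2984 and 4976 CPM in Lip to 1002, 875 and 824 CPM in Lip+ISO, a log2 change of -2.06 ± 0.20 (adjusted p = 7.11e-06, edgeR). The difference between both falls, an interaction of -1.07 ± 0.27, missed the threshold (adjusted p = 0.0778, edgeR) and passed with the block. Lip+ISO was below ISO for Thbs1 (-1.17 ± 0.20, adjusted p = 0.00252), Sema3a (-1.20 ± 0.24, 0.00692) and Sema3f (-0.80 ± 0.21, 0.0309). All 3 calls of Thbs1 held in every leave-one-out fit. Sema3f lost both of its calls in some (4 and 6 of 15) and the second one also in the fit of the compared groups only (0.0502). Sema3a lost its calls in 1 and 2 of 15 fits, and Serpinf1 lost its call in 2. Adamts1 also rose under inhibition, at 0.87 ± 0.21 (adjusted p = 0.0077, edgeR), a call lost in 2 of 15 leave-one-out fits. The block brought the lower genes of Lip+ISO against Lip from 1 to 3.

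Among 11 regulators of Vegfa transcription, Hif1a, the oxygen-sensitive HIF subunit, differed between both responses. It measured 430, 360 and 404 CPM in vehicle, 609, 541 and 645 CPM in ISO, 394, 346 and 324 CPM in Lip and 368, 298 and 305 CPM in Lip+ISO. ISO raised Hif1a without inhibitors (0.59 ± 0.11, adjusted p = 0.002, edgeR), and Lip+ISO lay below ISO (-0.89 ± 0.11, adjusted p = 3.37e-04). The interaction of -0.72 ± 0.16 passed (adjusted p = 0.0372), but its call was lost in 12 of 15 leave-one-out fits and when libraries were scaled by DESeq2's size factors (0.0512). For Vegfa, by comparison, the interaction was -0.41 and did not pass.

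Egln3, a HIF prolyl hydroxylase that HIF itself induces, rose by 1.65 ± 0.21 with ISO alone and by 2.54 ± 0.21 under inhibition, and Lip+ISO exceeded ISO by 0.90 ± 0.20 (adjusted p = 0.0137, edgeR, lost in 4 of 15 fits). The Egln3 interaction of 0.89 ± 0.29 missed the threshold (adjusted p = 0.172, edgeR) and passed with the block. Ppargc1a rose in both settings, by 3.79 ± 0.20 and 4.04 ± 0.20 on the log2 scale, and Vhl and Egln1, which mark HIF for degradation, fell in both, at -0.44 ± 0.10 and -0.31 ± 0.09 with ISO and -0.37 ± 0.10 and -0.34 ± 0.09 under inhibition. Leaving out libraries ended the calls of Vhl in 1 and 5 and of Egln1 in 7 and 4 of 15 fits. In all, 4 regulators rose and 2 fell with ISO (4 fell with the block), and 2 rose and 2 fell under inhibition.

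Of 16 HIF targets that are not members, 5 rose and 1 fell for ISO against vehicle, against a background of 12.3% and 13.9% of all genes. The glucose transporter gene Slc2a1 (1.04 ± 0.13) and the hexokinase gene Hk2 (1.59 ± 0.16) rose most, followed by Pgk1, P4ha1 and Ldha at 0.41 to 0.53, and Bnip3 fell (-0.42 ± 0.12, a call lost in 5 of 15 leave-one-out fits). Slc2a1 measured 131, 155 and 173 CPM in vehicle, 270, 328 and 345 CPM in ISO, 162, 161 and 162 CPM in Lip and 185, 148 and 137 CPM in Lip+ISO. Lip and Lip+ISO overlapped for Slc2a1, and the interaction was -1.08 ± 0.18 (adjusted p = 0.0105, edgeR), a call that was lost without replicate 2 (0.277) or replicate 3 (0.132) of every group.

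Hk2 rose under inhibition as well, at 1.41 ± 0.15 (adjusted p = 2.02e-05, edgeR). In total 4 targets rose and 3 fell for Lip+ISO against Lip, the falling ones including Pfkfb3 (-2.54 ± 0.28) and Adm (-1.81 ± 0.30), which encodes the vasodilator adrenomedullin. Against ISO, Lip+ISO was higher for 1 target and lower for 4, among them Slc2a1 (-1.004 ± 0.13) and P4ha1 (-0.42 ± 0.08). The higher one was Ndrg1 (0.52 ± 0.15, adjusted p = 0.0432, edgeR), whose call was lost in 9 of 15 leave-one-out fits, with library totals alone (0.091) and in the fit of the compared groups (0.0882).

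Finally, the genes whose log2 CPM over the 12 libraries lay closest to those of Vegfa were sought among 9831 genes with at least 5 CPM on average. They were Mdm2 (Pearson r = 0.973), Lonrf3 (0.967), Phlda1 (0.966), Gtpbp4 (0.964) and Plk3 (0.96). For Fgf2 they were Nudt6 (0.986), Nudt4 (0.983), Mapkapk2 (0.98), Tfip11 (0.97) and Sppl2a (0.97), a search that was added after the values had been seen. These correlations describe libraries that share 4 group means, and no member was among the genes searched.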

How the data were processed

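RNA sequencing counts of 12 libraries were used. Raw counts of reads per RefSeq gene were deposited, without normalization, and the authors made them by mapping to mm9 with STAR 2.4.2a and counting with HOMER and iRNA-seq, keeping one read per position and length. The strand setting, and whether intronic reads were counted, are not given in the sources used here. The table's 2 length columns were used for levels per kb, and its starts, which count from 0, are printed from 1. Groups and replicate numbers came from the sample titles.

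In R 4.3.3, edgeR 4.0.16 was run with filterByExpr (13543 genes left), TMM scaling and a quasi-likelihood model of 4 group means without a block. Two-sided F-tests were used, with Benjamini-Hochberg adjustment over every gene tested (threshold 0.05; standard errors are the size of the log2 change over the root of F; common biological coefficient of variation 0.163). Each group held only 3 libraries, and the main fit pooled the spread within groups over all 12 libraries, with moderation across genes. Its p-values therefore measure that pooled spread and not the spread of the compared groups alone. The procedure was tested on simulated data with known changes in the ISO group, drawn without any replicate effect. That test therefore does not cover shared deviations of same-numbered libraries. DESeq2 1.42.0, other scalings, no filter, the compared groups only, a replicate block and leave-one-out fits (12 libraries and 3 replicate numbers) were run as alternatives. Shares of all genes are printed from the main fit, and from the blocked fit only for ISO against vehicle and Lip+ISO against Lip. Counts from the other fits, DESeq2 included, have no such share beside them.

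Same-numbered libraries deviated together for ISO against vehicle (r = 0.298, 0.331 and 0.139), Lip+ISO against Lip (0.192, 0.298 and 0.232) and Lip against vehicle (0.343, 0.369 and 0.197), all above 0.1, so blocked values are printed there where a member's call changed or a list's count moved by over 1.5 times. For Lip+ISO against ISO they did not all (0.102, 0.311 and 0.0373). The labels do not say what a number marks.

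The 10 members, the gene lists and the tests were chosen with earlier results of these data known. All members are named, and from the other lists genes that passed, at most 6 per list and comparison, the largest changes first; one listed gene is not reported here. Genes most like Vegfa had the highest Pearson r of log2 CPM (prior count 2). The Fgf2 search and the alternatives for genes of the other lists were added after seeing the data. Promoter sequences are from RefSeq (GRCm38.p6).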

Additional observations from a re-analysis of the deposited data

Results flagged for a closer look

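The response to ISO with lipase inhibitors was compared with that without them by the interaction in edgeR, and among the members, the pathway and marker lists and Nudt6, 6 genes differed by that test. Fgf2 responded more with inhibitors, by 1.37 on the log2 scale (adjusted p = 0.024), higher in 3 of 3 replicate numbers in both settings. Its convergent neighbour Nudt6 differed by 1.28 (adjusted p = 0.00172). The HIF target Pfkfb3, a kinase that drives glycolysis, differed by -2.19 (adjusted p = 0.0114), Slc2a1 by -1.08 (0.0105) and Hif1a by -0.72 (0.0372). The adipocyte marker Pparg differed by 0.58 (adjusted p = 0.0274). Leaving out libraries took the adjusted p above 0.05 in 9 of 15 fits for Fgf2, 12 for Hif1a, 11 for Pparg and 2 each for Nudt6, Slc2a1 and Pfkfb3. Vegfa, at -0.41, missed the threshold of that test (adjusted p = 0.493).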

How the results depend on the processing

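Across the alternatives other than leaving out libraries, 277 of 290 values of the members kept their direction and their side of the threshold, and 673 of 750 did when libraries were left out; the cause of the changes was not tested. When libraries were left out, the counts of members called higher ranged from 1 to 3 for ISO against vehicle (lowest without vehicle replicate 3 or replicate 3 of all groups, where Vegfa was the one left), with 0 lower throughout. With inhibitors they ranged, for Lip+ISO against Lip, from 2 to 3 higher and 0 to 1 lower, for Lip+ISO against ISO from 1 to 2 and 0 to 1, and for the interaction from 0 to 1 in each direction. For Lip+ISO against ISO, DESeq2 called 2 members higher (Pdgfa added at 0.48, adjusted p = 0.0207), and the fit of the compared groups called 0 lower. No member that passed changed direction in any fit. Directions changed for members that did not pass: with library totals alone Vegfb for Lip against vehicle was at 0.0041 and Pdgfa for Lip+ISO against Lip at -0.0070, and Pdgfb for Lip+ISO against Lip was at 0.015 with DESeq2's size factors, 0.014 in DESeq2 and 0.054 with the block. In the leave-one-out fits log2 values that changed sign were again ones that did not pass. For ISO against vehicle these were Pdgfa from -0.12 to 0.11, Pdgfb from -0.076 to 0.50, Pgf from -0.61 to 1.05 and Vegfc from -0.10 to 0.61. For Lip against vehicle these were Angpt2 from -0.65 to 0.24, Pdgfb from -0.91 to 0.043 and Vegfb from -0.11 to 0.026. For Lip+ISO against Lip these were Angpt1 from -0.48 to 0.037, Pdgfb from -0.34 to 0.58, Pgf from -0.24 to 1.47 and Vegfb from -0.24 to 0.061. For Lip+ISO against ISO these were Angpt2 from -0.13 to 0.50, Pgf from -1.42 to 0.59 and Vegfb from -0.14 to 0.26. For the interaction these were Angpt2 from -0.077 to 0.81, Pdgfa from -0.0069 to 0.24, Pdgfb from -0.52 to 0.43, Pgf from -0.86 to 1.14 and Vegfb from -0.12 to 0.24. Library totals alone moved the median of all genes for Lip+ISO against Lip to -0.12 and called 1 pathway gene higher for Lip+ISO against ISO (2 with TMM) and 3 marker genes higher for Lip+ISO against Lip (6 with TMM). Per transcript span the order over all libraries was Vegfa 1, Vegfb 2, Pdgfb 3, Fgf2 4, Pdgfa 5, Fgf1 6, Pgf 7, Angpt2 8, Vegfc 9 and Angpt1 10.

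With the replicate number as a block, 4 members were higher for ISO against vehicle and 3 for Lip+ISO against Lip (Angpt2 added in both), Vegfc became the 1 member lower for Lip+ISO against Lip, and Pdgfa passed as the other of 2 members higher for Lip+ISO against ISO (0.47, adjusted p = 0.0102), where the numbers do not all pair the libraries. Beside those and Angpt2 the block changed no other call of a member. It turned Pgf in the interaction to 0.32 (adjusted p = 0.761). For Lip+ISO against ISO the share of all genes passing with the block is not given here, so the count of 2 members has no background beside it. Calls among the 61 genes of the pathway lists went from 17 to 28 higher for ISO against vehicle, from 8 to 13 lower for Lip+ISO against Lip, from 2 to 4 higher and 11 to 21 lower for Lip+ISO against ISO, and from 0 to 2 higher and 3 to 11 lower for the interaction. Calls among the 56 markers went from 15 to 36 higher for ISO against vehicle, from 6 to 15 higher and 3 to 5 lower for Lip+ISO against Lip, from 6 to 25 lower for Lip+ISO against ISO and from 0 to 3 lower for the interaction. The depth gave Pgf and Vegfc as few as 15 and 23 reads in a library, which limits what can be told of them.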
